A study of Mus musculus with 14 samples.

Results

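Six4, Eya1, Eya4, Pax3, Pax7, Tead1, Tead4 and Runx1 encode transcription factors and cofactors that act before or beside MyoD and Myogenin in skeletal muscle. The members were these 8 genes, and their peaks were the chromatin immunoprecipitation (ChIP-seq) peaks that the deposited annotation assigned to them as the gene with the nearest transcription start. They held 532 of 517058 peaks in 10 peak lists. All cells were C2C12, an established mouse myoblast line that fuses into myotubes in low serum, collected after 2 days of differentiation. Control cells were compared with cells in which Myolinc, a muscle long noncoding RNA, was knocked down with siRNA (siMyolinc, 10 nM) before differentiation, and the labels do not say what the control cells received in its place. The antibodies recognised TDP-43 (a DNA- and RNA-binding protein), MyoD, Myogenin (both E-box-binding muscle factors) and elongating RNA polymerase II phosphorylated at serine 2 (Pol II S2P). Control TDP-43 had 3 libraries and every other group had 1, all from 1 cell line, and nothing says whether the 3 were separate cultures. Test results therefore describe the spread between these libraries, which may be technical. The study asked how loss of Myolinc changes binding of these proteins at genes of muscle differentiation.

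Six4 and its relatives are homeodomain proteins that bind DNA, and Eya proteins, which also carry a phosphatase domain, join them as coactivators. In the embryo they lie upstream of Pax3 and of the myogenic factors. Pax3 marks migrating muscle precursors, and Pax7 marks the satellite cells of adult muscle and falls as cells differentiate. Tead1 and Tead4 bind the MCAT element of muscle genes and are the DNA-binding partners of Yap1 and Wwtr1, while Runx1 is a Runt-family factor active in myoblasts and denervated muscle.

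The libraries differed in depth and in peak shape. The lists held 29703, 10571 and 8162 peaks for control TDP-43 replicates 1 to 3, 71884 for control MyoD, 115000 for control Myogenin and 10716 for control Pol II S2P. After knockdown the TDP-43 list held 24964, the MyoD list 109541, Myogenin had 20453 and Pol II S2P 116064. If the authors' peak scores are scaled to 10000000 tags, the control TDP-43 libraries held between 962387 and 1394415 tags against 3253049 after knockdown, and Pol II S2P 1455043 against 3774954. The siMyolinc MyoD and Myogenin lists had peaks 75 bp wide, against 217 to 249 bp in the other 8. Each member peak rested on few sequenced tags, with a median of 6 to 16 in 8 lists, 24 in siMyolinc MyoD and 119 in siMyolinc Myogenin. Knockdown, depth and peak shape cannot be told apart wherever they changed together. Of 14 genes of differentiating muscle, a promoter peak was listed at 2, 1 and 1 in control TDP-43 replicates 1 to 3, against 5.09%, 2.12% and 1.65% of all genes, and at 1 after knockdown (2.49%). MyoD had 0 and 2 of the 14 in control and siMyolinc cells (4.01% and 11.2%), Myogenin 3 and 0 (6.46% and 2.46%) and Pol II S2P 2 and 4 (1.55% and 8.89%). Lists of 4 fibroblast, 3 osteoblast, 3 adipocyte and 3 neuron genes had 0 or 1 member with such a peak in each library, except that siMyolinc MyoD had 2 of 3 osteoblast genes, Runx2 and Sp7 (66.7% against 11.2%). A peak measures binding, not expression.

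A promoter sequence could be shown for a member where a RefSeq promoter window (GRCm38.p6, 250 bases before to 50 after a start) was met by a peak. Of 32851 windows, 7 belonged to 4 members, namely Six4, Eya4, Pax7 and Runx1, and of these only the 2 overlapping Six4 windows were met, at chr12:73113196-73113495 and chr12:73113376-73113675 on the minus strand. Both hold the whole of the same peak, and the first, which runs further into the gene, is printed. Capitals mark the 75 bases covered by the siMyolinc MyoD peak at chr12:73113404-73113478. It is printed because it is the sole member promoter for which a peak and its sequence can be read together.
Six4: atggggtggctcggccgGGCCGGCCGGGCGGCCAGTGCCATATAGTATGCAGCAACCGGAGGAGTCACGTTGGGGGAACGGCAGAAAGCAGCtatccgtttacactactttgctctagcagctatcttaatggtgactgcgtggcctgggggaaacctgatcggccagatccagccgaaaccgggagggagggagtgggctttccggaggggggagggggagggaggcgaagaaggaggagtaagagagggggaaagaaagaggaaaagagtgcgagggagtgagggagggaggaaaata

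Neither Six4 window held a match to the E-box CANNTG on either strand, a motif found in 72.3% of all 32851 windows. The printed window held 1 match to the MEF3 element TCAGGTTTC, the site bound by Six4 and its relatives, on the opposite strand, starting at base 152 counted from the 5′ end as printed. That motif occurred in 0.429% of all windows, the match lies outside the capitals, and the second Six4 window, which does not reach it, held none. G and C made up 65.3% of the 75 capitals and 60% of the window. The letters describe this window only.

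Most member peaks were of the intron or intergenic class, as were most peaks of the lists. Introns held 266 of 532 (50%, against 39.0% of all peaks) and intergenic sequence 236 (44.4% against 50.3%). Promoters held 7 (1.32% against 2.29%), exons and untranslated regions 22 (4.14% against 7.06%) and gene ends 1. Peaks within 5000 bp of a start made up 7.71% against 13.5%, and peaks beyond 100 kb made up 33.3% against 29.1%. Repeats held 25.2% of member peaks against 36.2% of all peaks.

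The summed share of the 8 genes was similar in most lists. They took 27, 10 and 6 peaks of control TDP-43 replicates 1 to 3, which is 0.0909%, 0.0946% and 0.0735% of each list. After knockdown they took 27 peaks, or 0.108% (95% Wilson interval 0.0743 to 0.157%). The control mean was 0.0863 ± 0.0113% (SD, n = 3), all 3 controls lay below the siMyolinc library, and the exact two-sided permutation test gave p = 0.5. With 3 libraries against 1 that test cannot go below 0.25. The siMyolinc over control ratio was 1.25 with all peaks and 0.908 when peaks under their list's median score were left out, so its direction turned with that setting. MyoD gave 68 and 117 peaks in control and siMyolinc cells, 0.0946% and 0.107%, a ratio of 1.13 (0.838 to 1.52), which was 0.990 without peaks in repeats. Myogenin gave 122 and 21 peaks, 0.106% and 0.103%, a ratio of 0.968 (0.609 to 1.54), and between 0.661 and 1.45 over the alternatives. Pol II S2P gave 5 and 129 peaks, 0.0467% and 0.111%, a ratio of 2.38 (0.975 to 5.82). The intervals cover counting error in the numbers of peaks only, not the spread between libraries. Intervals on tags, given further on, also cover counting error only, and copies made by PCR are not independent molecules. The last 3 antibodies had no replicate and hence no test.

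**Figure D1:**
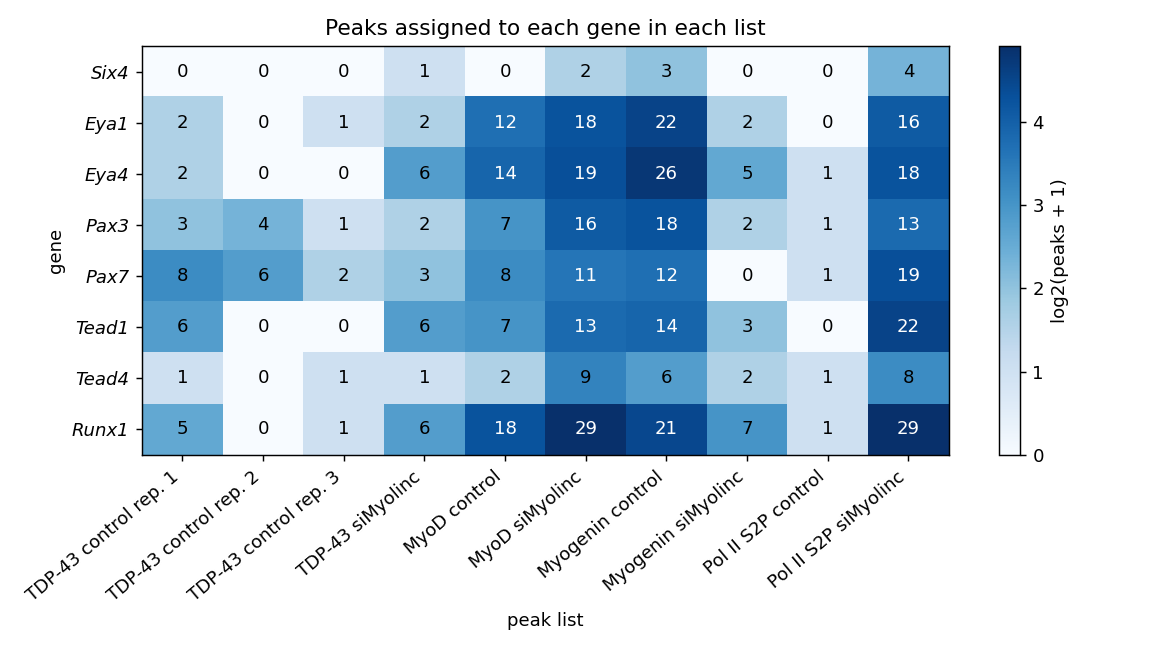
Number of peaks assigned to each of the 8 genes (vertical axis) in each of the 10 lists (horizontal axis), printed in the cells and coloured on a log2(peaks + 1) scale. Pax7 has 8, 6 and 2 peaks in the 3 control TDP-43 lists, and Runx1 has 29 in both the siMyolinc MyoD and the siMyolinc Pol II S2P list.

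Members with any peak were counted beside all 21900 protein-coding genes. In control TDP-43 replicates 1 to 3 a peak was assigned to 7, 2 and 5 of 8 members, against 49.3%, 26.8% and 22.3% of genes, and after knockdown to 8 against 45.1%. For MyoD 7 of 8 in control (64.9% of genes) and 8 after knockdown (75.6%) had a peak. For Myogenin these were 8 (73.2%) and 6 (39.7%), and for Pol II S2P 5 (26.8%) and 8 (77%). These counts depend on the size of the region in which a member is the nearest start, and the number of peaks per region is given further on.

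Promoter peaks were listed at 3 members in siMyolinc MyoD and at 0 or 1 in each other list. In control TDP-43 they were listed at 1, 0 and 1 of 8 members in replicates 1 to 3, against 5.09%, 2.12% and 1.65% of genes, and at 0 after knockdown (2.49%). MyoD had them at 0 in control (4.01%) and 3 after knockdown (11.2%), Myogenin at 1 (6.46%) and 0 (2.46%), and Pol II S2P at 0 in both conditions (1.55% and 8.89%). The 3 members in the siMyolinc MyoD list were Six4, Eya4 and Pax3, and that list also has the narrow peaks. For TDP-43 the mean number of members was 0.667 in control and 0 after knockdown, and the exact permutation test, two-sided, gave p = 1. With the start widened to 1000 bp on either side, the control TDP-43 lists had a peak at 3, 0 and 2 members (11.6%, 5.1% and 3.82% of genes) and the siMyolinc list at 0 (4.74%). MyoD then had 0 and 5 members (6.66% and 18.9%), Myogenin 1 and 0 (10.8% and 4.74%) and Pol II S2P 0 and 2 (3.76% and 15.9%).

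Intron peaks were spread over more members. They were listed at 5, 2 and 2 members in control TDP-43 replicates 1 to 3 (23.1%, 9.4% and 7.44% of genes) and at 5 after knockdown (24.3%). MyoD had them at 7 and 8 members in control and siMyolinc cells (42.1% and 52.5%), Myogenin at 7 and 6 (49% and 20.8%) and Pol II S2P at 1 and 8 (10% and 53.4%). Intergenic peaks were listed at 6, 2 and 2 members in the TDP-43 controls (21.8%, 10.2% and 8.07%) and at 8 after knockdown (23.1%). For MyoD they were at 6 and 7 members (39.5% and 46.2%), for Myogenin at 8 and 4 (46.4% and 19.5%) and for Pol II S2P at 3 and 8 (10.8% and 49.3%).

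Six4 (chr12:73099609-73114031 in GRCm38.p6, as for the genes that follow), a DNA-binding partner of the Eya proteins, had 10 peaks in 4 lists and none in the others. No TDP-43 control held one. The siMyolinc TDP-43 list had a single intergenic peak, 30184 bp downstream of the start, with 8 tags. The siMyolinc MyoD list had the promoter peak shown above, at -196 bp with 24 tags (exact Poisson 95% interval 15.4 to 35.7), and an intron 1 peak at 2176 bp with 27 tags. Control Myogenin had 3 peaks, in the 3′ untranslated region (11 tags) and in the intergenic sequence beyond it (25 and 15 tags). The siMyolinc Pol II S2P list had 4, of which 1 lay in exon 1 at 896 bp (9 tags) and 1 in intron 1 at 2597 bp (7 tags). Peaks within the gene therefore came from MyoD and Pol II S2P after knockdown and from Myogenin in control, with no position in more than 1 list.

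Eya1 (chr1:14168953-14311035) had 75 peaks, of which 27 were intronic, 47 intergenic and 1 in the 5′ untranslated region, and 49 lay beyond 100 kb from the start. The counts were 2, 0 and 1 in the TDP-43 controls and 2 after knockdown, 12 and 18 for MyoD, 22 and 2 for Myogenin, and 0 and 16 for Pol II S2P. The peak nearest to a start was siMyolinc MyoD at chr1:14310007-14310081, in exon 1 at 155 bp, with 40 tags (28.6 to 54.5). The strongest siMyolinc MyoD peak (45 tags) was intergenic, at 213095 bp, and the control Myogenin peaks with the most tags (27 each) lay in intron 11 of 17 and at -176277 bp. All 3 control TDP-43 peaks were intergenic and over 100 kb upstream, at -131083 bp (12 tags) and -136597 bp (6 tags) on LINE elements and at -196873 bp (6 tags) on a CpG island. The siMyolinc TDP-43 peaks lay in intron 11 (8 tags) and at -73385 bp (7 tags).

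Eya4 (chr10:23102962-23350838) had 91 peaks, 49 of them intronic and 39 intergenic. TDP-43 gave 2, 0 and 0 in the controls and 6 after knockdown, MyoD 14 and 19, Myogenin 26 and 5, and Pol II S2P 1 and 18. Intron 2 of 18 held 20 peaks (8 control, 12 siMyolinc) and intron 3 held 12 (3 control, 9 siMyolinc). Both promoter peaks came from siMyolinc MyoD, at chr10:23350852-23350926 (-986 bp, 18 tags) and chr10:23350545-23350619 (-679 bp, 14 tags), below the list's median of 24 tags. The siMyolinc MyoD peaks with the most tags (50 each) lay in intron 13 and at -209023 bp, and the strongest siMyolinc Myogenin peak lay in intron 3 with 221. No position of Eya1 or Eya4 occurred in a second list. TDP-43 peaks in introns 2 and 3 numbered 1 in the controls (5 tags) and 3 after knockdown (6 to 8 tags).

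Pax3 (chr1:78101267-78197136) was the member with a peak in all 10 lists, 67 in total, of which 19 were intronic and 46 intergenic. The TDP-43 controls had 3, 4 and 1 peaks and the siMyolinc list 2, MyoD 7 and 16, Myogenin 18 and 2, and Pol II S2P 1 and 13. Each control TDP-43 library held 1 peak close after the Pax3 start, at 3 different positions. Replicate 1 had it in intron 1 at 554 bp (7 tags), replicate 2 in intron 2 at 1918 bp (7 tags) and replicate 3 in the 5′ untranslated region at 187 bp (6 tags). The replicate 2 peak overlapped the only control Pol II S2P peak of Pax3, at chr1:78195097-78195321 with 10 tags. Control Pol II S2P met 1 of 10 member peaks of replicate 2 (10%, against 19.7% of that list). In the siMyolinc TDP-43 list the nearest Pax3 peaks were intergenic, at 100008 and 150860 bp with 8 and 7 tags. The whole lists differed too. Promoter peaks made up 4.37%, 4.95% and 5.22% of control TDP-43 replicates 1 to 3 and 2.53% of the siMyolinc TDP-43 list. Exons and untranslated regions held 22.3%, 28.1% and 29.7% against 8.99%. Introns and intergenic sequence each held a larger share after knockdown than in any control. Whether the Pax3 contrast goes beyond this list-wide change was not tested. The contrast was picked after the values were seen, and each control peak rests on 6 or 7 tags. If scores are scaled as assumed above, the siMyolinc library was also the deeper one. The Pax3 promoter peak came from siMyolinc MyoD, at chr1:78197903-78197977 (-804 bp, 25 tags). Intron 4 of 8 held 11 of the 19 intron peaks, among them the strongest Pax3 peaks of siMyolinc MyoD (39 tags) and siMyolinc Myogenin (269 tags).

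**Figure D2:**
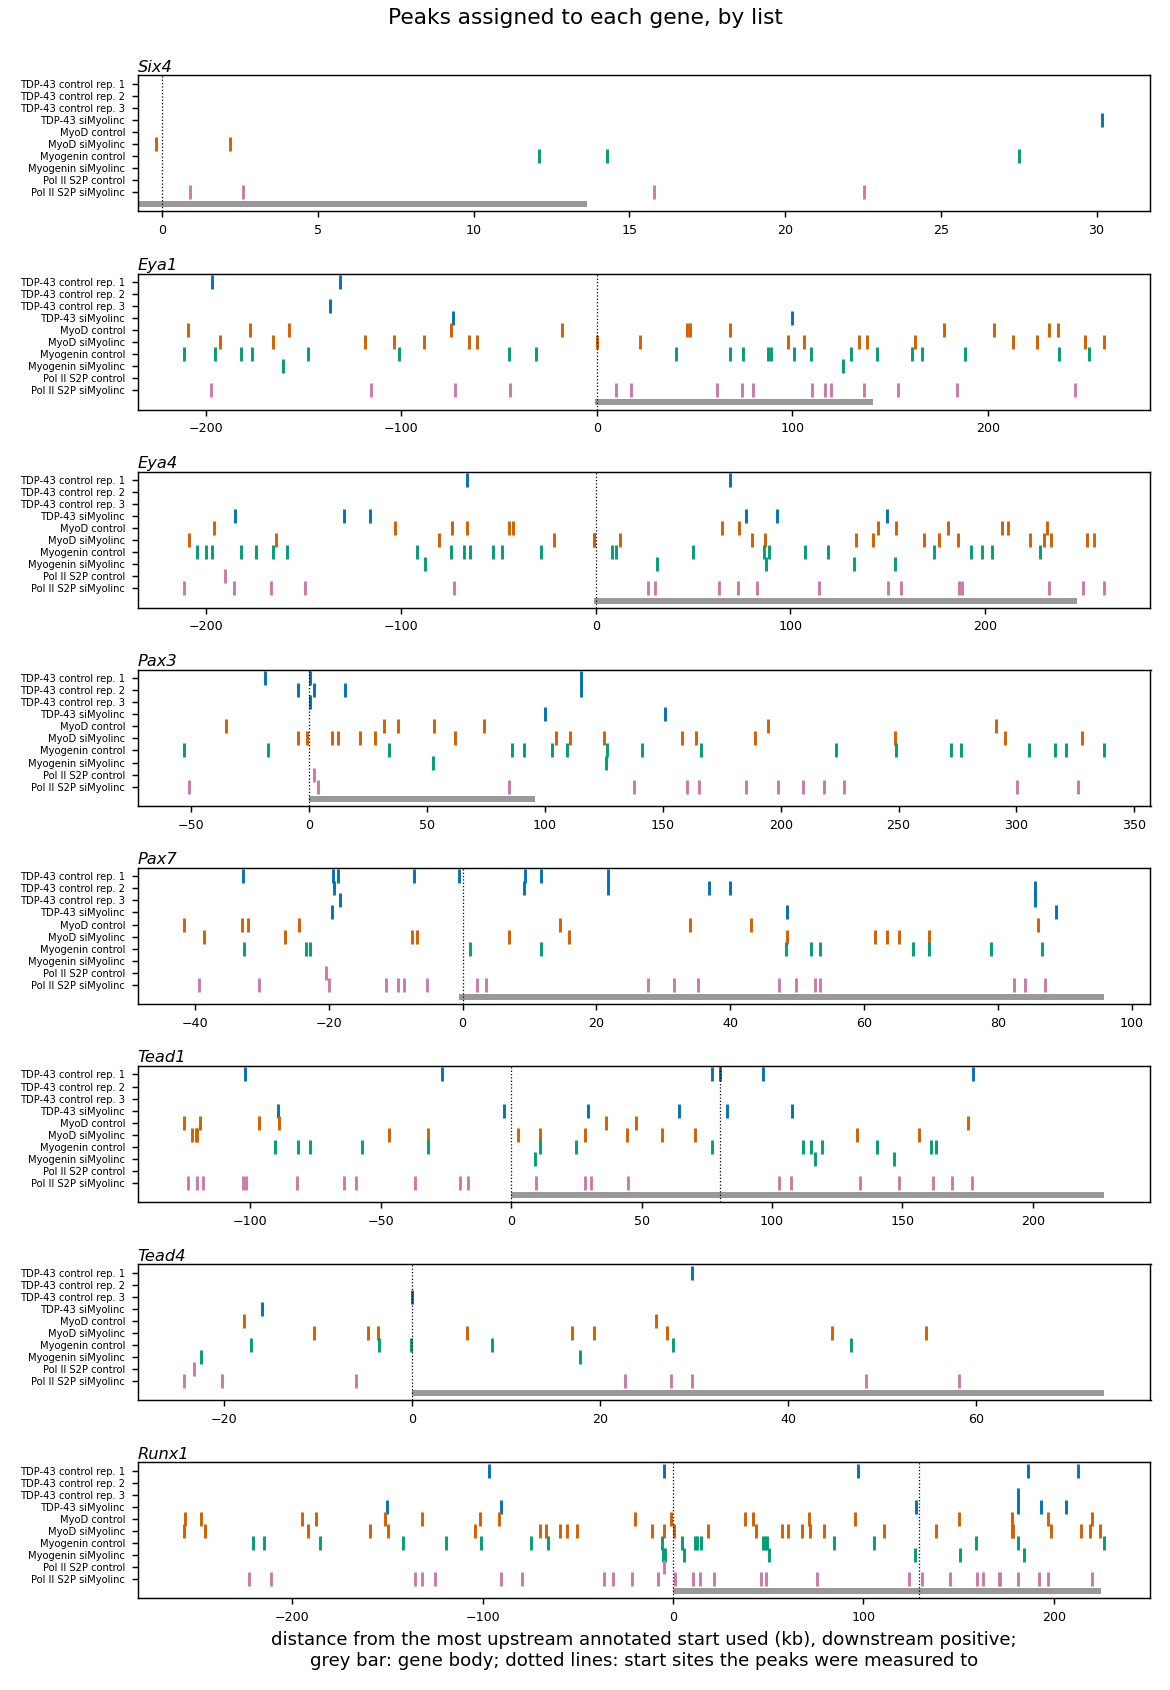
Centres of all 532 member peaks by list (rows within a panel; TDP-43 blue, MyoD orange, Myogenin green, Pol II S2P pink) against distance in kb from the most upstream start that the annotation used for the gene, downstream positive. Grey bars are gene bodies and dotted lines the start sites; control TDP-43 peaks gather around the Pax3 start and along Pax7, and Runx1 and Tead1 have an internal start.

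Pax7 (chr4:139737059-139833530) was the member with the most TDP-43 peaks in control cells. Replicates 1 to 3 had 8, 6 and 2, and the siMyolinc list had 3. As many peaks or more were assigned to 1.52%, 0.283% and 6.21% of protein-coding genes in the controls and to 11.6% after knockdown. MyoD gave 8 and 11 peaks, Myogenin 12 and 0, and Pol II S2P 1 and 19. Of the 70 peaks in all lists, 38 were intronic, 26 intergenic and 5 in exons, and 5 overlapped CpG islands, of 9 such member peaks in total. CpG islands held 1.69% of member peaks against 0.858% of all peaks. They held 3.23%, 5.07% and 5.07% of the whole lists of control TDP-43 replicates 1 to 3, and 0.821% of the siMyolinc TDP-43 list.

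The Pax7 promoter peak was in control TDP-43 replicate 1, at chr4:139833315-139833563 (-471 bp, 11 tags, 5.49 to 19.7). No other list had a peak of the promoter class there. Intron 4 of 8 held 17 peaks, 7 of them from control TDP-43 and none from siMyolinc TDP-43. The 7 were summed over the control lists and came from replicates 1 and 2, which shared positions given below, while siMyolinc TDP-43 had 1 list. Whether this differs beyond the number of lists was not tested. The single siMyolinc TDP-43 intron peak lay in intron 8 at 88679 bp with 7 tags, and another lay in exon 5 at 48475 bp, also with 7 tags.

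Pax7 had 5 positions that recurred between control TDP-43 libraries. In intron 4 a CpG island position was held by replicate 1 at chr4:139823580-139823828 (11 tags) and replicate 2 at chr4:139823611-139823829 (8 tags). Also in intron 4, replicates 1 and 2 met at chr4:139811156-139811404 (10 tags) and chr4:139811134-139811352 (7 tags). In intron 8, replicates 2 and 3 met at chr4:139747356-139747574 (9 tags) and chr4:139747336-139747554 (8 tags). Upstream of the gene, replicates 1 and 3 met about 18 kb away, at -18550 and -18350 bp with 8 and 7 tags. The last lay at -19348 and -19265 bp in replicates 1 and 2 (6 and 4 tags) and was the Pax7 position also found after knockdown, at -19438 bp with 6 tags. None of these positions was in all 3 controls. Replicate 1 met 3 of 6 Pax7 peaks of replicate 2 (37.6% of that list), and replicate 2 met 3 of 8 of replicate 1 (13.4%). Replicate 3 met 1 of 6 Pax7 peaks of replicate 2 (27.5% of that list) and 1 of 8 of replicate 1 (10.9%). These are few peaks, and whether Pax7 recurs more than its lists was not tested. Other antibodies met the gene at a second CpG island position in intron 4, shared by control Myogenin (17 tags) and control TDP-43 replicate 1 (12 tags), and in or beside intron 7. In the last, control Myogenin met siMyolinc MyoD at about 69 kb (10 and 29 tags) and siMyolinc Pol II S2P at about 53 kb (15 and 14 tags).

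**Figure D3:**
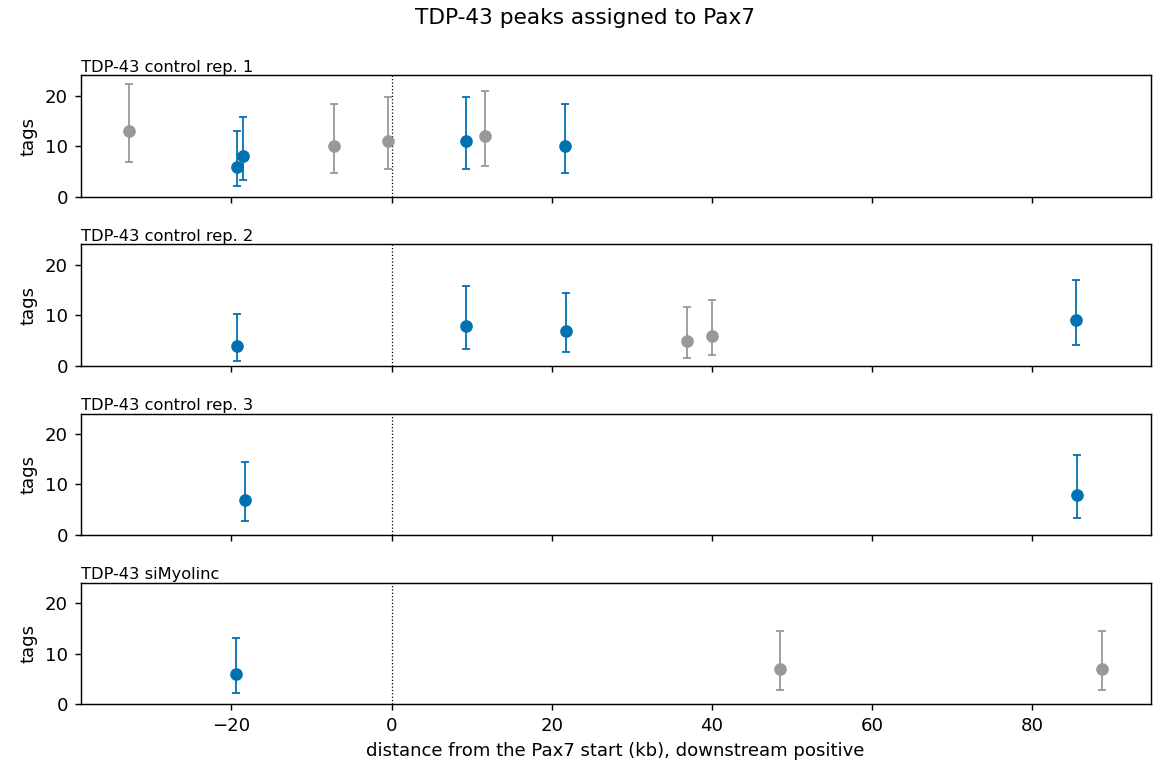
Tags of each TDP-43 peak assigned to Pax7 (vertical axis, with exact Poisson 95% intervals) against its distance in kb from the Pax7 start (dotted line), downstream positive, in the 3 control libraries and the siMyolinc library. Blue points overlap a peak of another TDP-43 library and grey points do not; 4 of 8, 4 of 6 and 2 of 2 points are blue in controls 1 to 3 and 1 of 3 after knockdown.

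The genes lie in regions of unequal size, so peaks were also counted per megabase of the region in which each gene is the nearest start. The 8 regions ran from 42.2 kb for Six4 to 492.0 kb for Runx1, 2438.6 kb together, as estimated from the runs of peaks assigned to each gene. Over all 8, peaks per Mb divided by the same value for the whole list gave 0.990, 1.03 and 0.800 in the TDP-43 controls. That is a mean of 0.940 ± 0.123 (SD, n = 3), against 1.18 in siMyolinc cells (p = 0.5, exact permutation test, two-sided). Summed over the members, the controls held 43 peaks where the list density gives 44.5. That sum does not describe each gene, since Pax7 held 16 of the 43 where list density gives 2.54. Six4, Eya1, Eya4 and Runx1 held fewer than list density gives, among them Eya1 with 3 against 8.74 and Eya4 with 2 against 8.90. Pax3, Tead1 and Tead4 held slightly more.

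Pax7 stood apart within that sum. Its region of 139.2 kb held 5.14, 10.8 and 4.68 times the TDP-43 peak density of the list in controls 1 to 3. The 95% Poisson intervals were 2.22 to 10.1, 3.97 to 23.6 and 0.566 to 16.9, and that of replicate 3, with 2 peaks, includes the density of the list. The siMyolinc value was 2.29 (0.473 to 6.70), below all 3 controls. The control mean was 6.88 ± 3.43 (SD, n = 3), and p was 0.5 (exact permutation test, two-sided), so the difference cannot be called against the spread between control libraries. The controls held 16 peaks where list density gives 2.54, and the siMyolinc list 3 where it gives 1.31. Among 5164 protein-coding genes with a region of 100 kb or more, 1.12%, 0.213% and 4.03% were at or above the value of Pax7 in the controls and 11.3% after knockdown, and 32 (0.620%) were at or above its control mean. For MyoD the density at Pax7 was 2.12 (0.917 to 4.18) in control and 1.92 (0.957 to 3.43) in siMyolinc cells, intervals that include the density of the list. Myogenin gave 1.99 (1.03 to 3.48) in control and 0 (0 to 3.44, no peak) after knockdown. Pol II S2P gave 1.78 (0.0451 to 9.92, 1 peak) and 3.12 (1.88 to 4.88). Of the 5164 genes 36 (0.697%) reached the siMyolinc Pol II S2P value. This gene was singled out after its values were seen.

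**Figure D4:**
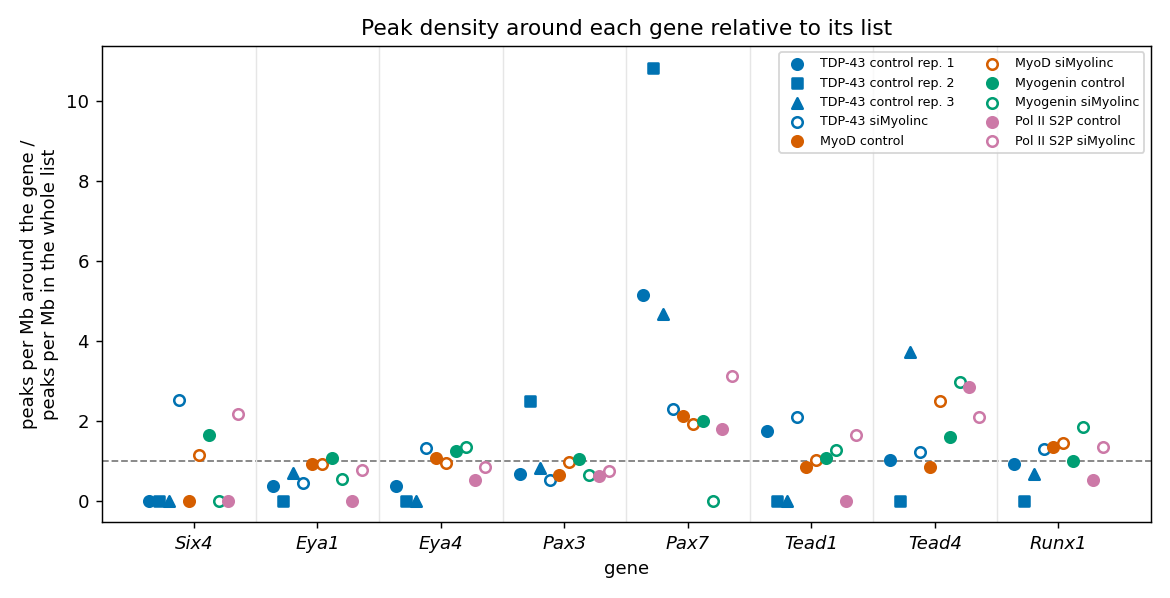
Peaks per Mb in the region of each gene divided by peaks per Mb in the whole list (vertical axis), for the 8 genes (horizontal axis) and 10 lists; filled symbols are control, open symbols siMyolinc, and the dashed line marks the density of the list. The 3 control TDP-43 values of Pax7 (5.14, 10.8 and 4.68) are above all values of the other 7 genes.

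The remaining members showed no such density for TDP-43. The control mean was 0 for Six4, 0.351 ± 0.340 for Eya1, 0.122 ± 0.212 for Eya4, 1.32 ± 1.01 for Pax3, 0.583 ± 1.01 for Tead1, 1.58 ± 1.92 for Tead4 and 0.523 ± 0.470 for Runx1 (SD, n = 3). The siMyolinc values were 2.52, 0.444, 1.31, 0.527, 2.08, 1.22 and 1.30 in the same order. Pax3, Pax7 and Tead4 were thus lower after knockdown than their control mean and the other 5 higher. No exact two-sided permutation p was below 0.25, the smallest that this design gives. The Six4 value after knockdown is 1 peak.

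Tead1 (chr7:112679356-112906784), a DNA-binding partner of the Hippo pathway coactivators, had 71 peaks, 52 intronic, 14 intergenic and 5 in exons or untranslated regions. Of these, 15 lay inside the neighbouring gene Parva, so their assignment to Tead1 rests on the nearest start alone. TDP-43 gave 6, 0 and 0 peaks in the controls and 6 after knockdown, MyoD 7 and 13, Myogenin 14 and 3, and Pol II S2P 0 and 22. The control TDP-43 peaks all came from replicate 1, the list with the most peaks. One of them, at chr7:112759391-112759639 with 6 tags, lay in exon 2, 131 bp after the internal start. Another, at chr7:112756219-112756467 with 8 tags, lay on a CGG simple repeat of intron 1 and coincided with a control Myogenin peak of 6 tags. Introns 1 and 2 held 19 and 15 peaks. The siMyolinc MyoD peak at chr7:112682104-112682178, in intron 1 at 2821 bp, had 47 tags, as did another in an intron at -22109 bp from the internal start. The strongest control Myogenin peak lay upstream, at -31769 bp, with 37 tags. Positions in 2 lists numbered 6, and 5 of them lay in introns of Tead1 and 1 in Parva. None joined both conditions of 1 antibody. No promoter peak was listed.

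Tead4 (chr6:128227143-128300813) had 31 peaks, 17 intronic, 8 intergenic, 3 in exons, 2 at the promoter and 1 at a gene end, and 4 of them lay in the neighbouring gene Tulp3. The counts were 1, 0 and 1 in the TDP-43 controls and 1 after knockdown, 2 and 9 for MyoD, 6 and 2 for Myogenin, and 1 and 8 for Pol II S2P. Its promoter was the sole member promoter met by 2 antibodies in control cells. TDP-43 replicate 3 had a peak at chr6:128300758-128300976 (-54 bp, 7 tags, 2.81 to 14.4), and Myogenin one at chr6:128300807-128301025 (-103 bp, 13 tags, 6.92 to 22.2), which overlapped it. TDP-43 replicates 1 and 2 and the 4 siMyolinc lists had none there. Replicate 1 instead met a siMyolinc Pol II S2P peak in exon 2, at chr6:128270895-128271143 (11 tags) and chr6:128270915-128271133 (12 tags). Control Myogenin met siMyolinc Pol II S2P in intron 1 at 27764 bp (25 and 12 tags) and siMyolinc MyoD on repeats at -3530 bp (8 and 35 tags). The density of MyoD peaks at Tead4 was 0.846 times that of the list (0.102 to 3.06) in control and 2.50 times (1.14 to 4.74) after knockdown, intervals that overlap. After knockdown Myogenin gave 2.97 (0.360 to 10.7) and Pol II S2P 2.10 (0.905 to 4.13), which include the density of the list.

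Runx1 (chr16:92601466-92826074) had the most peaks of the 8, with 117, of which 62 were intronic and 51 intergenic, and none was of the promoter class. TDP-43 gave 5, 0 and 1 in the controls and 6 after knockdown, MyoD 18 and 29, Myogenin 21 and 7, and Pol II S2P 1 and 29. Intron 2 of the long transcript held 35 peaks, 14 control and 21 siMyolinc. Close to the distal start, siMyolinc MyoD had a peak of 42 tags at 554 bp and siMyolinc Pol II S2P one of 11 tags at 792 bp. Near the internal start, siMyolinc Myogenin had a CpG island peak of 211 tags at -1418 bp and siMyolinc TDP-43 one of 6 tags at -1070 bp, which did not overlap. The strongest Runx1 peak of any list was also siMyolinc Myogenin, at -5217 bp with 249 tags, in a list whose peaks have a median of 137.

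Runx1 also held the position that occurred in the most lists. In intron 5, about 52 kb after the internal start, overlapping peaks joined control Myogenin (chr16:92644515-92644733, 6 tags), control TDP-43 replicate 3 (chr16:92644549-92644767, 5 tags), siMyolinc TDP-43 (chr16:92644649-92644865, 11 tags) and siMyolinc Pol II S2P (chr16:92644835-92645053, 10 tags). The first and the last of these touch only through the peaks between them. Upstream of the distal start, siMyolinc Myogenin (-4405 bp, 46 tags), control Pol II S2P (-4541 bp, 6 tags) and control TDP-43 replicate 1 (-4590 bp, 7 tags) were joined in a second position. There the Myogenin and TDP-43 peaks did not overlap each other and were joined only through the Pol II S2P peak. The same intron 5 held the one member position common to both MyoD lists, at chr16:92647822-92648052 in control (7 tags) and chr16:92647825-92647899 after knockdown (20 tags).

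Positions held by more than 1 list were counted for the members. The matching share over all positions of the 10 lists was not computed, so the counts that follow have no background. Joined by overlap of 1 bp or more, the 532 peaks made 498 positions, of which 28 (5.62%) were in 2 or more lists, 23 of them in 2, 4 in 3 and 1 in 4. Without the narrow siMyolinc MyoD and Myogenin lists, 22 positions recurred. By gene these were 10 of 57 positions for Pax7, 6 of 108 for Runx1, 6 of 65 for Tead1, 4 of 27 for Tead4 and 2 of 65 for Pax3, and 0 of 10, 75 and 91 for Six4, Eya1 and Eya4. Of 6 positions found in 2 TDP-43 controls, 5 belonged to Pax7 and 1 to Pax3, the last at chr1:78081778-78081996 in replicate 2 (7 tags), 115249 bp from the start. Pax7 also held 16 of the 43 control TDP-43 peaks of the members. Apart from those already described, positions in 3 lists lay at Pax7 near exon 5, in siMyolinc TDP-43 (7 tags), siMyolinc MyoD (23 tags) and control Myogenin (18 tags), and about 32 kb upstream of Pax7, in control Myogenin (20 tags), control TDP-43 replicate 1 (13 tags) and control MyoD (16 tags).

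Control peaks were seldom found again with the same antibody after knockdown. For TDP-43 it was 3 of 43 control peaks (6.98%), against 5.88%, 7.08% and 7.36% over the whole lists of replicates 1 to 3. Without replicate 1 it was 2 of 16 (12.5%). The 3 peaks were not independent, since replicates 1 and 2 met the same siMyolinc peak upstream of Pax7. The peak of replicate 3 was the one in intron 5 of Runx1. For MyoD 1 of 68 control peaks was found again (1.47%, against 1.77% of its list). For Myogenin it was 0 of 122, with a 95% Wilson interval up to 3.05% (list value 0.355%). For Pol II S2P it was 0 of 5, too few to compare with the 10.5% of the list. With peaks extended by 500 bp the counts were 5 of 43 for TDP-43 (11.6%), 4 of 68 for MyoD (5.88%), 4 of 122 for Myogenin (3.28%) and 2 of 5 for Pol II S2P (40%). Between control TDP-43 libraries, replicate 1 met 4 of 10 member peaks of replicate 2 (40%, against 37.6% of the list), and replicate 2 met 4 of 27 of replicate 1 (14.8% against 13.4%). The pairs with replicate 3 lay below their lists, each with 1 peak met. Replicate 3 met 3.70% of the replicate 1 peaks (list 10.9%) and 10% of those of replicate 2 (27.5%), and its own 6 peaks were met at 16.7% by replicate 1 (39.8%) and by replicate 2 (35.7%). The 95% Wilson interval of each of these 4 shares includes the share of the list.

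The other 27 genes of these pathways were counted as a list. It held relatives of Six4, Eya1, Tead1 and Runx1, the Dach and Vgll cofactors, the Tead partners Yap1 and Wwtr1, and precursor genes such as Lbx1, Met, Meox1 and Tbx1. A promoter peak was listed at 3, 2 and 3 of 27 in control TDP-43 replicates 1 to 3 and at 1 after knockdown, beside the shares of all genes already given. MyoD had 1 in control and 2 after knockdown, Myogenin had 3 and 0, and control Pol II S2P 1. Only Tbx1, a T-box factor of head muscle precursors, and Meox2, a homeobox factor of limb muscle, had a promoter peak in 2 or more lists. Tbx1 had one in 5 lists. Control TDP-43 replicate 3 (chr16:18591178-18591396, 11 tags), replicate 2 (chr16:18591167-18591385, 5 tags), control Pol II S2P (chr16:18591249-18591473, 9 tags) and siMyolinc Pol II S2P (chr16:18591267-18591485, 10 tags) overlapped there. Meox2 had 31 tags in control Myogenin and 5 in control TDP-43 replicate 2, at -483 and -252 bp, without overlap.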

How the data were processed

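The deposited peak lists, 1 for each of 10 ChIP-seq libraries, were called against IgG by the authors and annotated with HOMER on mm10, per the file headers and the submitters' processing notes. No HOMER version, aligner or peak-calling setting is given in the sources used here. Each peak has, per the file headers, a score, a focus ratio (a fraction of tags near the centre, used as a description only), an annotation class and a distance to the nearest start. The 4 input and IgG samples were not analysed here.

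Within each list the authors' scores were whole multiples of 1 step, within a rounding tolerance of 0.05 and with the 1% highest scores set aside, for 100% of scores. The score divided by the step was read as tags. Library tags assume scaling to 10000000, stated in no header or label.

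Members were peaks whose gene name is 1 of the 8 genes. Gene classes and coordinates (GRCm38.p6) came from a RefSeq gene table. The region of a gene is the run of peaks assigned to it in the 10 lists joined, cut midway to the next peak. Intervals are exact Poisson or Wilson intervals at 95%. Control and siMyolinc TDP-43 were compared by an exact two-sided permutation test over libraries (scipy 1.17.1, numpy 2.4.6, pandas 2.3.3, Python 3.11.15). Other antibodies had 1 library per condition and no test. The score step, the overlap of peaks and the method for region size and density were tested on simulated data. The other computations were not tested in that way.

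The named peaks were every promoter peak, the strongest peaks and the positions in 2 or more lists. Members, lists and rules were chosen with earlier results of these data known. Peaks near the Pax3 start, the density of Pax7 and the settings for it, and the count without the narrow lists were chosen after seeing the data. Alternatives were other promoter widths, score, repeat and overlap settings, lists of equal length, and leaving out each TDP-43 control. A gene of the pathway list and the count that turns on it are not reported here.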

Additional observations from a re-analysis of the deposited data

How the results depend on the processing

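Of 56 alternative values, 48 were counted as the same, 7 moved and 1 reversed. For the TDP-43 share, promoter count and Pax7 density, the same means the same direction. For the other shares, and for control peaks met after knockdown with any antibody, it means within the 95% counting interval. For the other counts it means within 1.5 times. The 48 include share ratios that crossed 1 within their interval, for MyoD from 1.13 to 0.990 without repeats and for Myogenin from 0.968 to 1.05 without repeats and 1.45 inside gene bodies. The share of TDP-43 peaks at the 8 genes reversed, from 1.25 siMyolinc over control to 0.908 without peaks under the median score. The number of members with a promoter peak, siMyolinc minus control, moved for MyoD from 3 to 5 within 1000 bp and 6 within 5000 bp, for Pol II S2P from 0 to 2 within either distance, and for Myogenin from -1 to -3 within 5000 bp and to 0 without peaks under the median score. With peaks extended by 500 bp, the control peaks met after knockdown went from 0% to 3.28% for Myogenin, 0% to 40% for Pol II S2P (2 of 5), 1.47% to 5.88% for MyoD and 6.98% to 11.6% for TDP-43. Of these only Myogenin was counted as moved. The Pol II S2P change is among the 48 because the interval for 0 of 5 peaks reaches 43.4%. Leaving out 1 TDP-43 control at a time gave share ratios from 1.17 to 1.32, promoter differences from -1 to -0.5, 5.41% to 12.5% of control peaks met after knockdown (12.5% without replicate 1) and a Pax7 density ratio from 0.287 to 0.467, reported as 0.333. That ratio was 0.241 without peaks under the median score, 0.392 without repeats and 0.377 without CpG islands, settings chosen after seeing the data. Causes of these changes were not tested. Control TDP-43 and control Pol II S2P libraries were the shallowest, and most member peaks rest on under 20 tags. No paired analysis was possible because control and siMyolinc groups share fewer than 2 replicate numbers.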
